A study of Gallus gallus with 58 samples.

Results

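The genes described here encode secreted proteins that birds make more of in inflammation: avidin (AVD), lipopolysaccharide-binding protein (LBP), fibronectin (FN1), the lipocalin EXFABP and transferrin (TF). A gene was taken as measured where a probe set of the array carried its symbol alone, and the probe set with the highest mean stood for it. By that rule 3 of the 5 genes were measured, of 11528 genes in the series: AVD and LBP through 1 probe set each and FN1 through 2. EXFABP and TF had no probe set under their symbol alone and were not analysed here.

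The study injected newly hatched chicks with CpG-ODN 2007, a synthetic oligodeoxynucleotide that activates chicken TLR21, a receptor for bacterial-type DNA, and followed their blood transcriptome. Whole blood was collected into PAXgene tubes and each of 58 chicks gave 1 array. Both arms were sampled at 3 h on day 0 (D0+3h), on day 3 (D3) and on day 6 (D6). The CpG and control chicks numbered 10 and 10 at 3 h, 8 and 8 at D3, and 10 and 12 at D6. What the controls received, and the breed, genotype and sex of the chicks, are not stated in the labels.

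Avidin is a biotin-binding glycoprotein best known from egg white, where it is made by the oviduct under progesterone, and chicken cells outside the oviduct also make it during inflammation. LBP carries bacterial lipopolysaccharide to CD14 and from there to TLR4 with its partner MD-2, and in mammals it is an acute phase protein of the liver. Fibronectin is a glycoprotein of plasma and extracellular matrix that cells grip through integrins, and macrophages and hepatocytes are both known to secrete it.

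Values are deposited RMA values on the log2 scale, so that a difference of 1 is a 2-fold change. Levels of different probe sets are compared only to mark a probe set as high or dim on the arrays. A difference counts as called where limma, fitted to all 20804 probe sets over the 58 arrays, gave a Benjamini-Hochberg adjusted p under 0.05. Array medians lay between 6.64 and 6.78. 4 arrays stood apart from their groups: CpG chick 20 at D3, CpG chick 31 at D6, control chick 74 at 3 h and control chick 86 at D3. The erythroid markers HBA1 (mean 14.18) and SLC4A1 (13.11) were high on the arrays, and the highest value of the table was 14.75. The liver markers ALB (4.72) and TTR (4.56) were below the level of 6.26 that 40% of probe sets fell under, and the liver marker APOA1 (7.98) was above it. In bulk blood, fewer cells of a type and less RNA per cell cannot be told apart.

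On day 6, AVD, LBP and FN1 were all higher in the blood of CpG chicks than in that of controls, by 3.80-fold, 2.14-fold and 2.29-fold. These are 3 of 3 measured genes, where 1.52% of all probe sets were called higher. Their median log2 difference was 1.19, against -0.02 over all probe sets. The genes were chosen with earlier results of these data known, so this count and this median are descriptions and not independent evidence. No gene of the 3 was called at 3 h or at D3, although AVD at D3 had a difference of 1.42.

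AVD, the biotin-binding protein, had at D6 a lowest value of 8.42, a median of 9.41 and a highest of 12.13 in the 10 CpG chicks, against 7.20, 7.75 and 8.90 in the 12 controls. The group means were 9.79 ± 1.19 (SD, n = 10) in CpG chicks and 7.86 ± 0.40 (n = 12) in controls. 7 of the 10 CpG chicks lay above every control, and CpG chicks 28 (12.13) and 26 (11.22) lay farthest above them. The difference was 1.93 ± 0.36 (SE; limma adjusted p = 0.00104) with a 95% interval of 1.21 to 2.64, and it was the 4th largest positive difference of the 20804 probe sets. The spread of AVD among CpG chicks of this age was wider than that among controls.

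LBP, the carrier of lipopolysaccharide, ran at D6 from 7.99 through a median of 8.51 to 9.48 in CpG chicks, against 7.14, 7.55 and 7.87 in controls. The groups did not overlap: all 10 CpG chicks lay above all 12 controls, a separation that 0.139% of probe sets showed. The means were 8.64 ± 0.49 in CpG chicks and 7.54 ± 0.23 in controls (SD, n = 10 and 12). The difference was 1.10 ± 0.19 (limma adjusted p = 3.93e-04; 95% interval 0.72 to 1.48).

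FN1, the matrix and plasma glycoprotein, had values at D6 from 9.70 through a median of 10.23 to 11.62 in CpG chicks, against 8.37, 9.23 and 9.85 in controls. 7 of 10 CpG chicks lay above every control, and chick 26 was the highest of them. The difference was 1.19 ± 0.27 (limma adjusted p = 0.00686; 95% interval 0.66 to 1.73). The other FN1 probe set differed by 0.92 ± 0.22 (adjusted p = 0.0133) with means of 8.28 in CpG chicks and 7.37 in controls, and the probe sets correlated within groups with r = 0.92 over the 58 chicks. Without the 4 arrays that stood apart, the D6 differences were 2.02 for AVD, 1.04 for LBP and 1.27 for FN1, and all 3 were called.

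**Figure D1:**
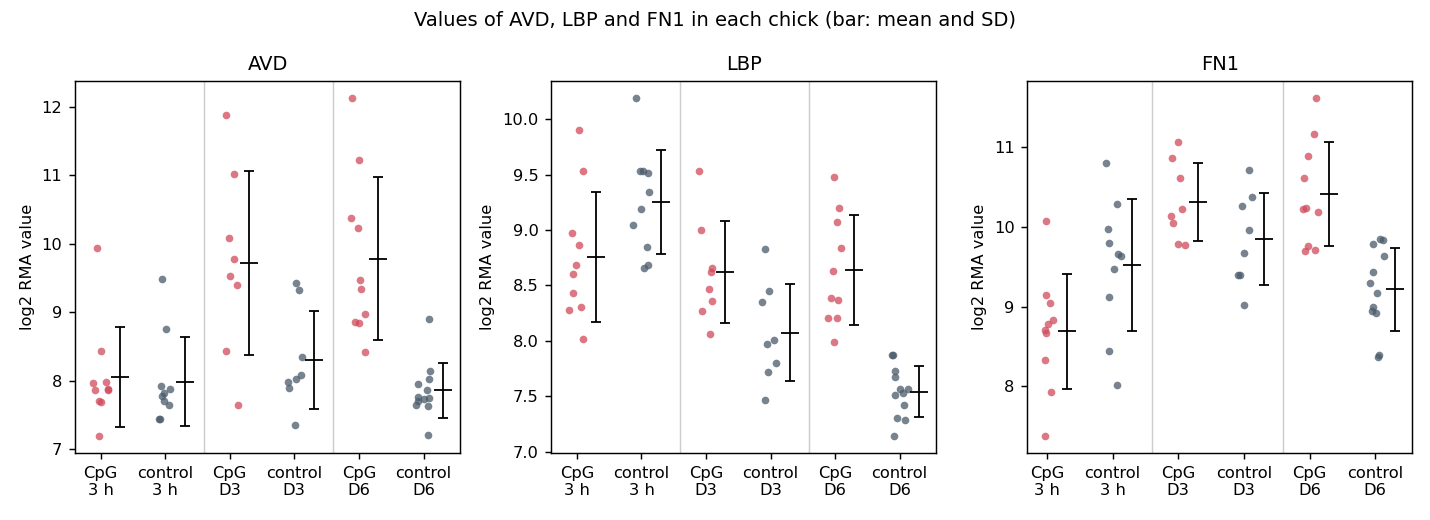
Each point is the log2 RMA value of 1 chick for AVD, LBP or FN1 (y axes) in the CpG and control groups at 3 h, D3 and D6 (x axes), and the bars are group means and SD. At D6 all 10 CpG chicks lie above the 12 controls for LBP, and 7 of 10 do so for AVD and for FN1.

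At D3 each gene had a positive difference, but none of the 3 passed the test, where 0.312% of all probe sets were called in either direction. At an unadjusted p under 0.05, 2 of the 3 would have passed, as would 3210 probe sets of the whole table. AVD ran from 7.65 through 9.65 to 11.88 in the 8 CpG chicks, against 7.36, 8.06 and 9.42 in the 8 controls. 5 CpG chicks lay above every control, whereas CpG chick 16 lay low in the control range. The SD of AVD was 1.34 in CpG chicks and 0.71 in controls, while limma used 1 estimate of the spread for all 6 groups. The AVD difference was 1.42 ± 0.42 (limma adjusted p = 0.101; 95% interval 0.58 to 2.25), the 6th largest positive difference of all probe sets. It was 1.71 without chick 16 (adjusted p = 0.0394), and 1.11 (adjusted p = 0.170) without the 4 arrays that stood apart, among which chick 20 had the highest AVD value of the group.

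LBP had a lowest value of 8.06, a median of 8.54 and a highest of 9.53 in CpG chicks at D3, against 7.47, 7.99 and 8.83 in controls. The groups overlapped apart from 2 CpG chicks, and the difference was 0.54 ± 0.22 (limma adjusted p = 0.221). FN1 ran from 9.77 through 10.19 to 11.07 in CpG chicks, against 9.02, 9.81 and 10.72 in controls. Its difference of 0.46 ± 0.31 (adjusted p = 0.469) had a 95% interval of -0.16 to 1.09. With 6 blood cell scores as covariates the FN1 difference at D3 turned to -0.65 ± 0.32 (adjusted p = 0.589), and that of AVD was 0.82 ± 0.49 (adjusted p = 0.696).

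At 3 h no probe set of the whole table was called (0%), and 1037 of them had an unadjusted p under 0.05, among them those of LBP and FN1. LBP ran from 8.01 through 8.65 to 9.91 in CpG chicks, against 8.66, 9.27 and 10.19 in controls. 5 of the 10 CpG chicks lay below every control. The LBP difference was -0.49 ± 0.20 (limma adjusted p = 0.911; 95% interval -0.89 to -0.10). FN1 ran from 7.37 through 8.74 to 10.07 in CpG chicks, against 8.02, 9.65 and 10.80 in controls, a difference of -0.83 ± 0.28 (adjusted p = 0.725).

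AVD values at 3 h covered 7.19 to 9.93 in CpG chicks with a median of 7.87, against 7.44 to 9.49 in controls with a median of 7.80. The difference was 0.06 ± 0.37 (limma adjusted p = 0.991) with a 95% interval of -0.69 to 0.81. The sign turned, to -0.14, without CpG chick 5, which had the highest AVD (9.93) and LBP (9.91) values of its group. The interval gives the range of differences compatible with these values and is not a limit of detection. A difference whose own 95% interval leaves out 0 can also go uncalled, as that of FN1 at 3 h did (-0.83, interval -1.39 to -0.27).

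**Figure D2:**
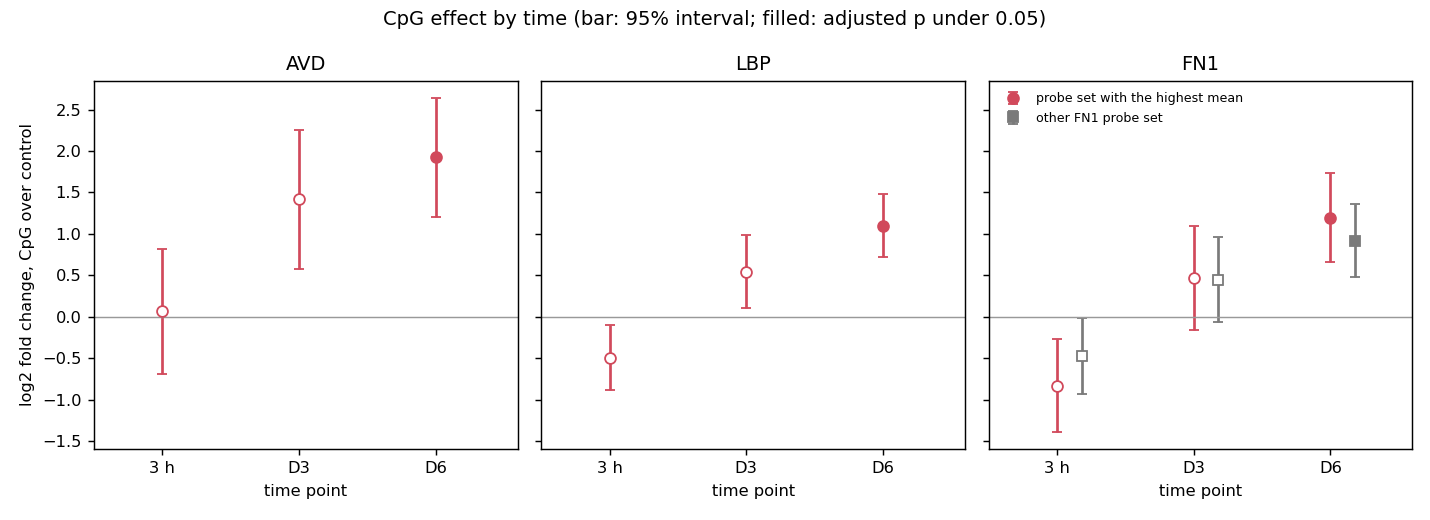
Points are the log2 difference of CpG chicks over controls (y axis) at 3 h, D3 and D6 (x axis) for AVD, LBP and FN1, bars are 95% intervals, and filled symbols had an adjusted p under 0.05. All 3 genes were called at D6 alone, and the differences of LBP (-0.49) and FN1 (-0.83) at 3 h were negative and not called.

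The CpG effect itself was set against that at another time. From 3 h to D6 it changed by 1.59 ± 0.27 for LBP (limma adjusted p = 0.00148) and by 2.03 ± 0.39 for FN1 (adjusted p = 0.00472), so that 2 of the 3 genes were called higher where 0.553% of probe sets were. For AVD the change was 1.86 ± 0.52 and missed the threshold (adjusted p = 0.0762). It passed without CpG chick 5 at 3 h (2.07, adjusted p = 0.0234) and without CpG chick 33 at D6 (1.96, adjusted p = 0.0491). Between D6 and D3 the effects differed by 0.51 for AVD, 0.55 for LBP and 0.73 for FN1. None of these 3 changes was called (0% of probe sets called). None of the 3 had an unadjusted p under 0.05, where 1201 probe sets of the whole table did. Between D3 and 3 h the changes of 1.35, 1.04 and 1.30 were not called by limma either (0.00961% of probe sets called). All 3 had an unadjusted p under 0.05, as did 1451 probe sets of the whole table.

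The same values were read along time within each arm. These comparisons share arrays with those above and are given for the levels they show. LBP fell in controls between 3 h and the later days: by 1.18 on the log2 scale at D3 (limma adjusted p = 1.58e-05; 13% of probe sets called lower) and by 1.71 at D6 (adjusted p = 8.53e-11; 21.7%), a 3.28-fold change. All 12 controls at D6 lay below all 10 controls at 3 h, as they did for 4.65% of probe sets. In CpG chicks the LBP difference between D6 and 3 h was -0.12 ± 0.20, with a 95% interval of -0.52 to 0.28. With 6 blood cell scores as covariates the falls in controls were not called, with -0.63 at D3 (adjusted p = 0.0546) and -0.74 at D6 (adjusted p = 0.0557). The mean log2 value of 9 monocyte markers in controls was 7.38 at 3 h, 7.18 at D3 and 6.88 at D6. Other lists fell in controls as well: the heterophil list had 7.47, 7.43 and 6.81, and the thrombocyte list 9.69, 9.40 and 9.29. The erythroid list had 11.94, 11.93 and 11.88, whereas its mean score, the measure used as a covariate, rose (-0.22, -0.01 and 0.13). The B cell list (6.57, 6.63 and 6.80) and the T cell list (7.00, 7.23 and 7.28) rose. The link of any list to the fall of LBP was not tested. LBP means were 8.76 at 3 h, 8.62 at D3 and 8.64 at D6 in CpG chicks, and 9.25, 8.08 and 7.54 in controls.

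AVD and FN1 had the other pattern. In CpG chicks AVD rose by 1.67 ± 0.40 at D3 over 3 h (limma adjusted p = 0.00131) and by 1.73 ± 0.37 at D6 over 3 h (adjusted p = 1.74e-04). FN1 rose in CpG chicks by 1.63 ± 0.30 at D3 (adjusted p = 3.67e-05) and by 1.72 ± 0.28 at D6 (adjusted p = 1.71e-06). These are 2 of 3 genes called higher at each time, where 9.68% and 24.1% of probe sets were. With the blood cell scores as covariates the D3 differences were 1.05 for AVD (adjusted p = 0.346) and 0.11 for FN1 (adjusted p = 0.927), and neither was called. At D6 over 3 h, AVD and FN1 both stayed called in CpG chicks with the scores. In controls AVD differed by -0.13 ± 0.36 and FN1 by -0.30 ± 0.27 between D6 and 3 h, and neither was called. Between D6 and D3 no gene of the 3 was called by limma in CpG chicks (27.1% of probe sets called) or in controls (14.7%). In CpG chicks no gene of the 3 had an unadjusted p under 0.05, where 8439 probe sets of the whole table did. In controls 2 of the 3 had an unadjusted p under 0.05, as did 6344 probe sets of the whole table.

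Ranked by group mean, AVD was highest in CpG chicks at D6 and at D3 (9.79 and 9.72), followed by controls at D3 (8.30), CpG chicks at 3 h (8.05), controls at 3 h (7.99) and controls at D6 (7.86). Of these neighbours, CpG and control chicks at D3 alone differed by more than the larger of their SDs. LBP was highest in controls at 3 h, then in CpG chicks at 3 h, D6 and D3, then in controls at D3 and last in controls at D6. For LBP the gaps below CpG chicks at D3 and below controls at D3, both 0.54, exceeded the larger SD. FN1 was highest in CpG chicks at D6 (10.41) and D3 (10.31), then in controls at D3 (9.85), 3 h (9.52) and D6 (9.22), and lowest in CpG chicks at 3 h (8.69). No FN1 neighbours differed by more than the larger of their SDs.

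Within groups, chicks with high AVD tended to have high LBP. After each group's mean was subtracted, Pearson's r over the 58 chicks was 0.52 (two-sided permutation p = 1.3e-04, adjusted over 3 pairs 3.9e-04) and Spearman's rho was 0.47 (p = 4.7e-04, adjusted 0.00141). It was 0.45 without the 2 chicks farthest from the median of AVD. By group, r was 0.80, 0.76 and 0.43 in CpG chicks at 3 h, D3 and D6, and 0.68, 0.12 and -0.12 in controls at those times. CpG chick 5 at 3 h, CpG chick 20 at D3 and control chick 75 at 3 h had the highest value of their group in both genes.

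AVD with FN1 gave r = 0.28 (permutation p = 0.0355, adjusted 0.0533) and rho = 0.30 (p = 0.0298, adjusted 0.0298). LBP with FN1 gave r = 0.24 (permutation p = 0.101, adjusted 0.101) and rho = 0.32 (p = 0.0187, adjusted 0.028). Without the 2 chicks farthest from the median, r was 0.21 for the first pair and 0.35 for the second. By group, r for AVD with FN1 was 0.04, 0.89 and 0.60 in CpG chicks at 3 h, D3 and D6, and -0.35, 0.30 and 0.22 in controls at those times. For LBP with FN1, CpG chicks had r of -0.16, 0.72 and 0.67 at the 3 times, against -0.34, 0.91 and 0.56 for the controls. With 6 blood cell scores removed as well as group means, r over the 58 chicks was -0.012 for AVD with FN1 and -0.26 for LBP with FN1, so that both turned in sign, and it was 0.34 for AVD with LBP.

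**Figure D3:**
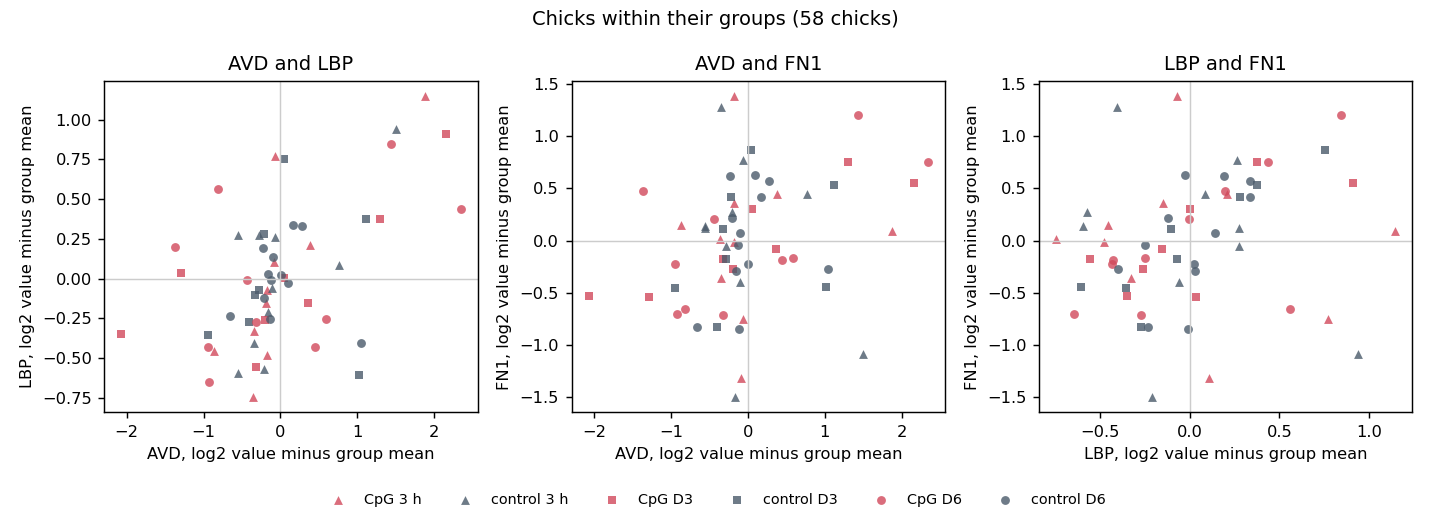
Each point is 1 of the 58 chicks, placed by its log2 value minus its group's mean for a pair of genes (AVD and LBP, AVD and FN1, LBP and FN1), with shapes for times and colours for treatment. AVD and LBP vary together (r = 0.52), and the other pairs have r = 0.28 and 0.24.

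Blood cell markers moved in the same comparisons. At D6, 4 of 9 measured monocyte markers, 4 of 14 heterophil markers (the avian counterpart of neutrophils) and 4 of 11 thrombocyte markers were higher in CpG chicks, and none of these was lower, where 1.52% of all probe sets were called higher. Of 12 erythroid markers at D6, XK, a red cell membrane protein, was higher (1.89 ± 0.29, limma adjusted p = 7.69e-05) and BPGM, an enzyme of red cell glycolysis, was lower (-0.81 ± 0.14, adjusted p = 4.40e-04). At D3, 6 of 14 heterophil markers, 1 monocyte marker and 1 thrombocyte marker were higher in CpG chicks than in controls, where 0.312% of probe sets were called in either direction. The 6 were LECT2 and the beta-defensins AvBD1, AvBD4, AvBD6, AvBD7 and DEFB4A (a synonym match), and none of them was called at D6. The 4 heterophil markers called at D6 were ITGB2, NCF4, CSF3R and S100A12 (a synonym match), and none of these was called at D3. Within the CpG arm 11 of the 14 heterophil markers were higher at D3 than at 3 h, where 9.68% of probe sets were. The part of cell numbers in the results was not tested. The scores of these lists hold genes that were themselves called in the CpG comparisons, such as LECT2, ITGB2 and LY86. A fit with the scores therefore cannot separate cell numbers from RNA per cell. At D6 the mean log2 value over the monocyte list ran from 7.03 to 7.66 in CpG chicks, against 6.71 to 7.09 in controls. Over the heterophil list it ran from 6.72 to 8.29 in CpG chicks, against 6.57 to 7.22 in controls. No B cell marker (of 7), T cell marker (of 13) or hepatocyte marker (of 17) was called by limma at D6. In each list 2 had an unadjusted p under 0.05, as did 2878 probe sets of the whole table. The hepatocyte list ran from 5.57 to 5.85 in CpG chicks, against 5.63 to 5.74 in controls. Within groups, over the 58 chicks on shared arrays, LBP had r = 0.70 with the monocyte score and 0.46 with the heterophil score. Its r was 0.42 with the thrombocyte and -0.37 with the erythroid score. FN1 had r = 0.63 with the heterophil, 0.55 with the monocyte and 0.37 with the T cell score. AVD had r = 0.51 with the monocyte and 0.49 with the heterophil score. With the hepatocyte score r was 0.14 for AVD, 0.15 for LBP and 0.05 for FN1.

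When the scores of 6 blood cell lists entered the fit as covariates, none of the 3 genes was called at D6. The D6 difference was then 1.05 ± 0.43 for AVD (limma adjusted p = 0.488), 0.35 ± 0.19 for LBP (adjusted p = 0.661) and 0.15 ± 0.28 for FN1 (adjusted p = 0.945). The change of the CpG effect from 3 h to D6 was 0.41 for LBP and 0.80 for FN1 in that fit, and neither was called. At D6, 15 probe sets were called in all with the scores as covariates, against 440 without them. As the scores hold markers called at D6, the lower count does not measure the part of cell numbers. At D6 the mean scores of the heterophil, monocyte, thrombocyte and T cell lists were higher in CpG chicks than in controls, and those of the B cell list (0.33 against 0.65) and the erythroid list (0.12 against 0.13) were lower.

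**Figure D4:**
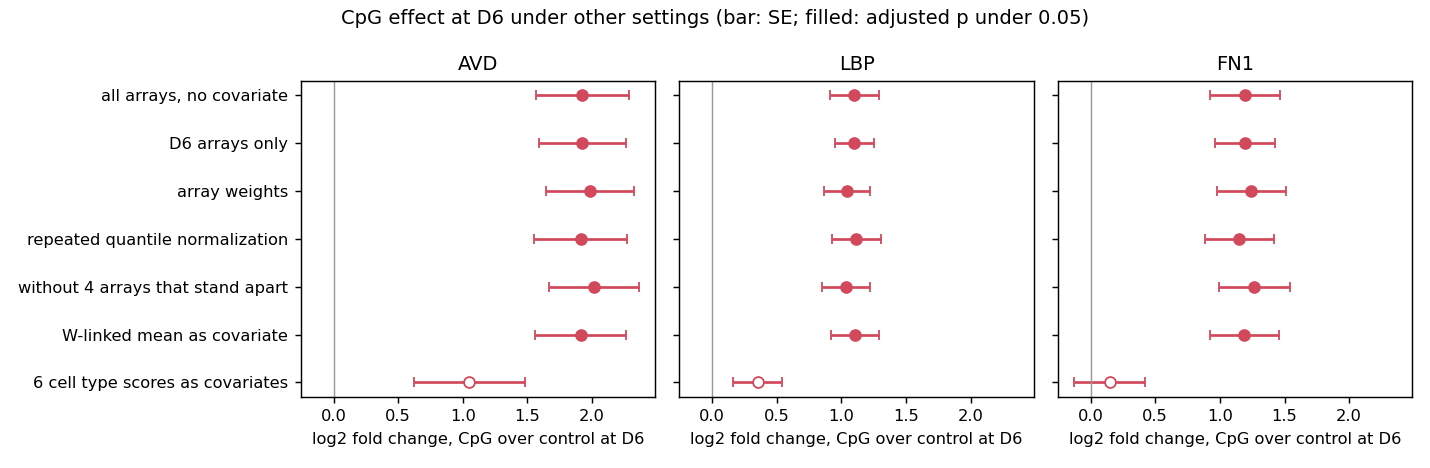
Points are the log2 difference of CpG chicks over controls at D6 (x axis) for AVD, LBP and FN1 under 7 ways of fitting (y axis), bars are SE, and filled points had an adjusted p under 0.05. The differences stay called in every fit drawn but the one with 6 cell type scores, where they are 1.05, 0.35 and 0.15.

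The genes around LBP in the recognition of lipopolysaccharide were taken as a list of 13, of which 9 were measured. At D6, 4 of them were higher in CpG chicks and none lower, where 1.52% of probe sets were called higher, with a list median of 0.45 against -0.02 over all probe sets. LY86, also called MD-1, the partner of the TLR4-related CD180, ran from 8.62 through 9.44 to 10.54 in CpG chicks, against 7.26, 8.02 and 8.52 in controls, without overlap. Of all probe sets 0.139% showed that separation at D6. The LY86 difference was 1.59 ± 0.21 (limma adjusted p = 1.54e-06), and LY86 was also called at D3 (1.03 ± 0.24, adjusted p = 0.0323). TLR4, the signalling receptor, was higher in CpG chicks than in controls at D6 by 0.68 ± 0.16 (limma adjusted p = 0.0116). LY96, its partner MD-2, was higher by 1.06 ± 0.29 (limma adjusted p = 0.0350). From 3 h to D6 the TLR4 mean went from 6.68 to 6.64 in CpG chicks and from 6.97 to 5.96 in controls. The LY96 mean went from 8.29 to 7.67 in CpG chicks and from 8.71 to 6.61 in controls. LY96 averaged 7.67 ± 0.79 in CpG chicks and 6.61 ± 0.23 in controls (SD). TLR1B, which in chickens pairs with TLR2 to sense bacterial lipoproteins, was the other one called (0.77 ± 0.22, adjusted p = 0.0496). TLR2A (0.45 ± 0.17, limma adjusted p = 0.162) and TLR2 (a synonym match, 0.36 ± 0.19, adjusted p = 0.398) were not called at D6. LY86 and TLR4 also stand in the monocyte list. No gene of the list was called at 3 h, where the list median was -0.28. At that time 1 had an unadjusted p under 0.05, as did 1037 of all probe sets. As with LBP, 8 of the 9 genes were lower in controls at D6 than at 3 h (list median -0.78 against 0.06 over all probe sets), where 21.7% of probe sets were called lower.

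Of the genes around fibronectin, 14 of 17 receptors and cross-linking enzymes were measured, and 2 were called higher at D6, where 1.52% of probe sets were, and 2 at D3, where 0.312% were called in either direction. The list median was 0.26 at D6 and 0.0029 at D3, against -0.02 over all probe sets at both times. An unadjusted p under 0.05, in either direction, was found for 9 of the 14 at D6 and 5 at D3. Of all probe sets, 2878 and 3210 had such a p at these times. Among the 9 at D6, LOXL2 (-0.28 ± 0.09) and ITGA9 (-0.21 ± 0.09) were lower in CpG chicks, and the others were higher. LOXL2 was negative at D3 as well (-0.28 ± 0.11). None of these negative differences was called. CD44, a cell surface receptor for hyaluronan that also binds fibronectin, averaged 7.66 ± 0.37 in CpG chicks and 6.77 ± 0.27 in controls at D6. The difference was 0.90 ± 0.18 (limma adjusted p = 0.00261). PLOD2, a lysyl hydroxylase whose known substrate is collagen rather than fibronectin, differed by 0.90 ± 0.19 at D3 (adjusted p = 0.0153) and 1.00 ± 0.17 at D6 (adjusted p = 3.43e-04). F13A1 is the transglutaminase chain of factor XIII that joins fibrin and fibronectin. It was higher in CpG chicks than in controls by 0.81 ± 0.19 at D3 (limma adjusted p = 0.0322). At D6 the difference was 0.52 ± 0.16 (limma adjusted p = 0.0724). F13A1 is also one of the thrombocyte markers. The integrin chain ITGB1 differed by 0.23 ± 0.10 at D6 and was not called (adjusted p = 0.272). Of 14 measured companion proteins of the extracellular matrix, limma called none at 3 h, D3 or D6. At these times 2, 3 and 1 of them had an unadjusted p under 0.05, as did 1037, 3210 and 2878 of all probe sets.

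A wider list of acute phase genes was read in the same way. Of 33 listed acute phase genes 16 were measured, and at D6 limma called 1 of them, where 1.52% of probe sets were called higher. It was VNN2, a vanin-family pantetheinase listed under its own symbol, with VNN1 among its synonyms. Counts of 0 or 1 in lists this small were not tested against that share. VNN2 averaged 6.96 ± 0.37 in CpG chicks and 6.22 ± 0.22 in controls (difference 0.74 ± 0.19, limma adjusted p = 0.0190). The list median was -0.01, and 3 of the 16 genes had an unadjusted p under 0.05. ORM1, the acute phase glycoprotein orosomucoid, differed by -0.06 ± 0.10, and FGB, a fibrinogen chain, by -0.20 ± 0.09, and neither was called. FGB also stands in the hepatocyte list, and its mean of 4.46 was below the level of 6.26 that 40% of probe sets fell under. Among 14 measured genes of IL6 and IL1 signalling 1 was called at D6, again where 1.52% of probe sets were called higher. An unadjusted p under 0.05, in either direction, was found for 6 of the 14 at D6, and for 2878 of all 20804 probe sets. It was STAT3, the transcription factor downstream of IL6 (0.50 ± 0.13, limma adjusted p = 0.0285). IL6 (-0.05 ± 0.09) and IL1B (-0.22 ± 0.08) were not called.

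The remaining lists follow the functions of AVD, EXFABP and TF. No gene of 13 for iron uptake and storage, of 10 lipocalins and fatty acid binding proteins, or of 6 that use or recycle biotin was called by limma in a CpG comparison. At D6, 2, 2 and 3 of them had an unadjusted p under 0.05, as did 2878 of the 20804 probe sets. Of all probe sets 0% were called at 3 h and 0.312% at D3, and 1.52% were called higher at D6. Of 9 egg white proteins 1 was called at D6, where 1.52% of probe sets were called higher. It was AVR2, the avidin-related protein encoded near AVD on chromosome Z. Its probe set was dim, with 4.94 ± 0.73 in CpG chicks and 3.76 ± 0.60 in controls (difference 1.18 ± 0.31, limma adjusted p = 0.0276). A probe set shared by AVR2 and the nearby LOC427416 differed by -0.06 ± 0.16 (adjusted p = 0.934). Avidin and its related genes are close in sequence, and how far their probes cross-hybridise was not tested. Ovalbumin, OVAL, the main egg white protein, differed by -0.21 ± 0.11 (adjusted p = 0.395).

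The genes whose values varied most like each member within groups were found among 11525 genes, by Pearson's r over the 58 chicks. For AVD they were PRNP, the prion protein gene (r = 0.67), AVR2 (0.62) and C3AR1L (0.60). For LBP they were INPP5D, an inositol phosphatase of blood cells (0.78), CYFIP1, a subunit of the actin-regulating WAVE complex (0.74), and ANGPT1, angiopoietin 1 (0.74). For FN1 they were LRP1, an endocytic receptor (0.88), C9ORF58 (0.84) and LAPTM5, a lysosomal membrane protein (0.81). At D6, LRP1 was higher in CpG chicks by 0.97 ± 0.21 (limma adjusted p = 0.00465), C9ORF58 by 0.97 ± 0.23 (adjusted p = 0.0120) and LAPTM5 by 0.72 ± 0.17 (adjusted p = 0.0101). PRNP (0.46), INPP5D (0.51) and CYFIP1 (0.50) were called higher as well, and C3AR1L (0.36) and ANGPT1 (0.59) were not called.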

How the data were processed

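Per the submitters' processing notes, the deposited values are RMA expression values; RMA gives log2 values after background correction, quantile normalization and summary of probes. No RMA version is named in the sources used here. The deposited log2 values were used as they stand for 20804 probe sets on 58 arrays. Of these probe sets 12300 had 1 gene symbol in the platform table; assembly GRCg7b served for names and gene neighbours alone.

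limma 3.58.1 in R 4.3.3 was fitted to the 6 groups without covariates, with 12 contrasts, and p-values were adjusted over all probe sets of a contrast. The labels give no batch, sex or pairing, and the replicate is the chick. The code was tested on simulated data. All members were named in every contrast; per member the 3 genes with the highest r within groups; and per gene list at most 3 genes called in a CpG contrast, to which TLR1B and the uncalled genes printed were added after their values were seen. Members, gene lists and marker lists were chosen with earlier results of these data known. 3 doubtful synonym matches were left out. Cell type scores are mean z-scores of 7 marker lists. Correlations used 100000 permutations within groups. Alternatives were another probe filter, normalization, variance prior, array weights, fewer arrays, covariates and leaving out each chick. The search of promoters for motifs was not run, as no promoter sequences were used here.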

Additional observations from a re-analysis of the deposited data

Results flagged for a closer look

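Among 15 groups of up to 10 chicks examined over AVD, LBP and FN1, 1 had a chick far from the rest: CpG chick 5 at 3 h, with an AVD value of 9.93 where the next highest was 8.44. Chance marks about 1 in 20 such groups. The effect of CpG at D6 differed from that at 3 h by the interaction test of limma for LBP, by 1.59, and for FN1, by 2.03.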

How the results depend on the processing

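The number of the 3 genes called at D6 was 3 under every alternative fitted, leaving out each chick included, except with 6 cell type scores as covariates, where it was 0. Those scores also gave 0 genes for the change of the CpG effect from 3 h to D6 (2 without them), for CpG chicks at D3 over 3 h (2) and for controls at D3 and at D6 over 3 h (1 each). In controls at D6 over D3 the count was 0, and it was 1, LBP, without the dimmest 40% of probe sets, with the arrays of those groups only and with 1 probe set per gene; leaving out a chick gave 0 to 1, with 1 reached without control chick 90. In CpG over control chicks at D3, leaving out a chick gave 0 to 1, with 1, AVD, reached without CpG chick 16. Of the gene pairs, 1 passed by Pearson's r, 3 by Spearman's rho and 2 without the farthest 2 chicks.

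The signs that turned belonged to differences that were not called and to pairs that did not pass by Pearson's r, although both pairs passed by Spearman's rho. With the 6 scores they were AVD with FN1 (-0.012), LBP with FN1 (-0.26), AVD in controls at D6 over 3 h (1.25) and over D3 (0.29), FN1 in controls at D6 over 3 h (0.44) and over D3 (0.34), FN1 in CpG over control chicks at D3 (-0.65), the LBP effect at D6 over D3 (-0.015) and LBP in CpG chicks at D6 over D3 (-0.12). The other FN1 probe set gave 0.017 in controls at D6 over 3 h. Leaving out each chick in turn gave -0.14 to 0.23 for AVD in CpG over control chicks at 3 h and -0.22 to 0.039 for AVD in controls at D6 over 3 h. It gave -0.21 to 0.0073 for LBP in CpG chicks at D6 over 3 h. In CpG chicks at D6 over D3 it gave -0.23 to 0.37 for AVD, -0.038 to 0.20 for FN1 and -0.075 to 0.15 for LBP. The cause was not tested.

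Over all probe sets, calls at D6 numbered 440, against 682 with array weights and 15 with the 6 scores. At D3 they numbered 65, against 144 with array weights, 123 without the 4 arrays that stood apart, 9 with the D3 arrays alone, 0 with the scores and 30 to 183 without a chick. At 3 h, 0 probe sets were called, against 8 with array weights, 1 after repeated quantile normalization and 4 with the scores. For the change from 3 h to D6 there were 124, against 258 with array weights and 0 with the scores. In controls calls numbered 2359 with the scores and 5158 without at D3 over 3 h, 739 and 3060 at D6 over D3 and 2641 and 9977 at D6 over 3 h; in CpG chicks 987 and 4039, 37 and 5638, and 3207 and 9278. No paired analysis was possible because the groups share no chick numbers. Signal over background is unknown, so that low values such as those of AVR2 and PLOD2 may be near background.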

Other observations

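AVD lies on chromosome Z, and the labels give no sex. The arrays fell on either side of the midpoint of the mean of 18 W-linked probe sets. Among CpG chicks at D6, the 5 samples on the high side had a mean AVD value of 9.36 and the 5 on the low side 10.21. Among controls at D6 the means were 7.75 and 7.97 over 6 samples each. In CpG chicks the high-side and low-side means were 7.67 and 8.21 at 3 h, and 9.26 and 10.49 at D3. In controls they were 8.24 and 7.82 at 3 h, and 8.29 and 8.32 at D3. The low side thus had the higher AVD mean in every group except controls at 3 h, and the difference between sides was not tested. With that W-linked mean as a covariate the D6 differences were 1.91 for AVD, 1.10 for LBP and 1.19 for FN1.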
